A study of Mus musculus with 38 samples.

Results

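Stromal progenitors are the mesenchymal cells of the bone lining that can give rise to bone-forming osteoblasts, marrow fibroblasts and marrow fat cells. In the marrow they also supply chemokines, growth factors and matrix to blood-forming cells, and myeloma, a cancer of antibody-secreting plasma cells, grows among them and is accompanied by bone loss. The comparison described here asked how the transcripts of these cells differed between mice that carried a myeloma and healthy mice. It rests on 10 of the 38 libraries of the series, assigned by their labels: 5 libraries from healthy mice (replicates C, L, M, N and O) and 5 from myeloma-bearing mice (replicates D, E, G, I and J).

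All mice were of the C57Bl/KaLwRij strain and were 8 to 10 weeks old when injected. Myeloma-bearing mice had received 1000000 cells of the 5TGM1-GFP line, a murine myeloma that carries a green fluorescent protein, by intravenous injection, and healthy mice had received the PBS vehicle by the same route. Bones were taken at day 23, the cells lining the femora and tibiae were released with collagenase, and 100 cells per library were sorted as negative for CD45, Ter119, CD31 and ALCAM and positive for Sca1 before SmartSeq2 amplification and sequencing. 5TGM1 stands for a single transplanted line, and the labels do not state that 1 letter is 1 mouse, so p-values measure the spread between these libraries.

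The sort gene and the markers of the population were present in every library. Ly6a, which encodes Sca1, lay at 1322, 1933, 1869.7, 908 and 792 RPKM (reads per kilobase of gene, scaled to library size) in healthy replicates C, L, M, N and O and at 1421, 776, 2871, 1136 and 955 RPKM in myeloma-bearing replicates D, E, G, I and J. Prrx1, a transcription factor of limb mesenchyme, ranged from 36.2 to 144 RPKM in healthy and from 49.3 to 119 RPKM in myeloma-bearing mice. Pdgfra, a growth factor receptor of mesenchymal cells, ranged from 34.2 to 75.6 RPKM and from 37.9 to 98.1 RPKM. The groups overlapped for all 3 genes. Alcam, on which the cells were sorted as negative, reached at most 1.43 RPKM, Pecam1 (CD31) at most 0.327 RPKM and Ptprc (CD45) at most 4.89 RPKM, the last in E3.

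Libraries held between 17269127 and 34883291 reads on genes, as recovered from the steps of the RPKM values. Healthy L3 and myeloma-bearing E3 stood apart from the rest of their groups by neutrophil transcripts. The 7 neutrophil markers in the table summed to 7439 RPKM in L3 and 8286 RPKM in E3, against 0.105 to 180 RPKM in the other healthy and 0.246 to 106 RPKM in the other myeloma-bearing libraries. S100a8, an alarmin of neutrophils, was at 4728 RPKM in L3 and 5174 RPKM in E3, so that 1 library of each group carried them. J3 differed in another way, with 18.1% of its reads on the ribosomal RNA precursor Rn45s against 0.459% to 2.47% elsewhere.

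**Figure D1:**
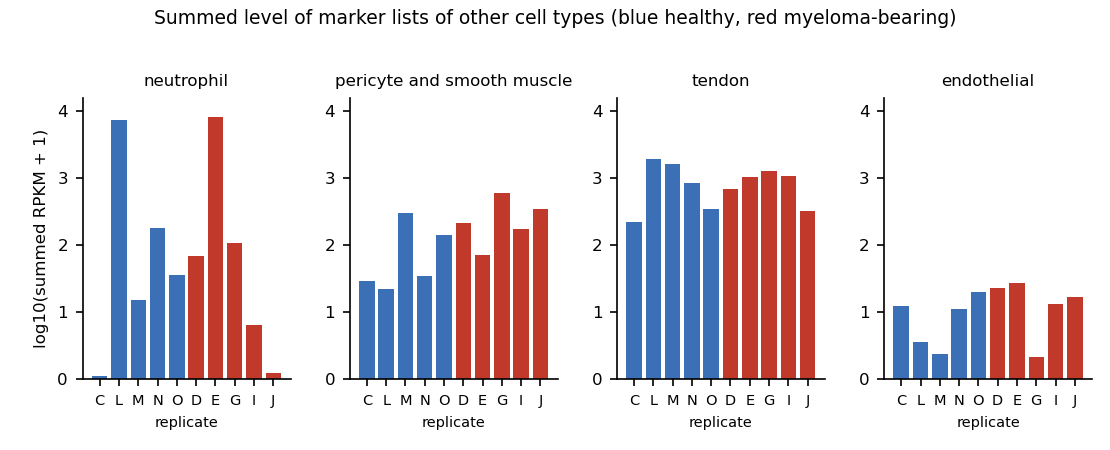
Each bar is 1 library and gives log10 of the summed RPKM plus 1 of the markers of 1 other cell type, with healthy libraries in blue and myeloma-bearing libraries in red. Neutrophil markers reach 7439 RPKM in L3 and 8286 RPKM in E3, pericyte and smooth muscle markers range from 21.0 to 302 RPKM in healthy and from 69.8 to 612 RPKM in myeloma-bearing libraries, and endothelial markers stay at or below 26.0 RPKM.

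Markers of other cell types differed widely in level. The 15 endothelial markers summed to 1.34 to 19.1 RPKM in healthy and 1.16 to 26.0 RPKM in myeloma-bearing libraries, and the 9 markers of B and plasma cells in the table to 10.2 to 33.1 RPKM and 6.13 to 34.8 RPKM, most of it Sdc1, which mesenchymal cells also make, except in I3, where the plasma cell gene Igj was at 6.81 RPKM and Sdc1 at 6.68 RPKM. The 8 markers of macrophages and osteoclasts in the table summed to 123 to 653 RPKM and 216 to 524 RPKM, most of it Ctsk, and the 10 of ALCAM-positive osteoprogenitors to 1938 to 2938 RPKM and 947 to 3340 RPKM, most of it the bone matrix genes Ibsp and Col1a1. The 3 Schwann cell markers in the table summed to 64.2 to 114 RPKM and 17.3 to 144 RPKM, nearly all of it S100b. Cartilage genes were abundant, their 12 markers summing to 11554 to 18338 RPKM and 2675 to 25906 RPKM, led by Chad, which encodes chondroadherin. The 5 tendon markers summed to 225 to 1948 RPKM and 318 to 1272 RPKM. The sorted population therefore held transcripts of several connective tissues, and of the 11 cartilage and 5 tendon genes tested, none had an unadjusted p below 0.05. Of 7 pericyte and smooth muscle genes tested, 6 had a positive difference and 2 had an unadjusted p below 0.05, beside 49.96% positive and 2.30% higher and 2.70% lower at that p over all genes tested. The channel gene Abcc9, 1 of these 2, exceeded 1 RPKM in myeloma-bearing libraries only. It passed the filter through them, so these counts are descriptions.

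Across the transcriptome, no gene passed the thresholds of the study (adjusted p below 0.1 and a more than 2-fold difference) when the 10 libraries were fitted by themselves. That is 0% of the 8747 genes that exceeded 1 RPKM in 4 or more of the 10 libraries (limma on log2(RPKM + 1), Benjamini-Hochberg adjustment). The study used voom-limma on counts, so this fit does not repeat its test. The smallest adjusted p was 0.264, and 201 genes (2.30%) were higher and 236 genes (2.70%) lower in myeloma-bearing mice at an unadjusted p below 0.05. Together these 2 shares are near the 0.05 that the threshold alone would give. The median residual SD of a gene among stromal progenitor libraries was 1.401 on the log2 scale. It was 1.614 among endothelial cells, 1.158 among osteoprogenitors and 0.549 among the sorted myeloma cells of the series. Differences of several fold could thus lie within the spread of these 100-cell libraries. In libraries made from sorted pools, a smaller number of cells of 1 type and less RNA per cell cannot be told apart.

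Groups of 5 libraries that did not overlap at all were found for 31 genes that were higher in myeloma-bearing mice (0.354% of those tested) and 30 that were lower (0.343%). Calls were made when the spread was estimated from all 38 libraries of the series. The fit of all 38 libraries on log2(RPKM + 1) called 31 of the same 8747 genes (0.354%), and voom-limma on the recovered reads called 82 of 13260 genes (0.618%). Both fits called 20 genes, of which 14 rose and 6 fell in myeloma-bearing mice. The median residual SD over all 38 libraries was 1.31, below that of the stromal progenitors, and for 31 of the 82 genes 1 group had at most 3 reads in every library.

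Hhip was among the genes with the most regular pattern. It encodes the hedgehog-interacting protein, a membrane-bound decoy that captures hedgehog ligands, and it lies in GRCm38.p6 at chromosome 8, from 79965850 to 80058060. Its level was 12.4, 9.61, 8.69, 14.9 and 23.9 RPKM in the healthy libraries and 0.822, 2.22, 0.705, 1.29 and 2.66 RPKM in the myeloma-bearing libraries. Every myeloma-bearing library was below every healthy one, and the values rested on 1489 to 4851 reads and 102 to 522 reads. The log2 difference was -2.53 (SE 0.83, n = 5 per group), with an adjusted p of 0.811 in the limma fit of the 10 libraries, 0.00294 in limma with 38 libraries and 0.0315 in voom-limma with 38 libraries. Hhip thus fell in both fits that pooled the spread.

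The other 5 genes that fell in both 38-library fits were less regular. Perp, a tetraspan membrane protein of cell junctions induced by p53, was at 17.9, 11.4, 0.195, 2.94 and 27.5 RPKM in healthy mice, while myeloma-bearing libraries had 0 to 1 read. The unnamed transcript 4632415L05Rik was at 0.160, 30.9, 14.0, 10.1 and 27.9 RPKM against at most 0.305 RPKM. Snhg10, a non-coding host of small nucleolar RNAs, was at 0, 57.0, 21.6, 7.79 and 64.5 RPKM against 0 to 2 reads. For these 3 genes myeloma-bearing libraries were near 0, and only Perp separated the groups in full. Acad8, a mitochondrial enzyme of valine breakdown, was at 28.8, 51.2, 12.2, 29.5 and 17.3 RPKM in healthy and at 1.35, 0, 3.28, 0.252 and 0.0197 RPKM in myeloma-bearing mice, with a log2 difference of -3.95 (SE 0.87). Serpinb7, a serine protease inhibitor, was at 17.6, 95.9, 90.7, 134 and 5.17 RPKM and was listed at 0 in D3, E3 and J3 but at 24.1 RPKM in G3 and 59.7 RPKM in I3.

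Of the 14 genes that rose in both 38-library fits, the largest levels belonged to Mecr and Plac8. Mecr, which completes mitochondrial fatty acid synthesis, was at 38.2 RPKM in healthy C3, at 0.131 RPKM in L3 and at 0 in M3, N3 and O3. In myeloma-bearing mice it was at 75.3, 72.3, 43.7, 139 and 87.5 RPKM, above every healthy library, with a log2 difference of 5.21 (SE 1.00, adjusted p 0.0567 and 0.0029 in limma and voom-limma with 38 libraries). Hp, which encodes haptoglobin, the haemoglobin-binding acute phase protein, was at 2.79, 0.0436, 0.0345, 0.0341 and 0 RPKM in healthy and at 64.2, 47.7, 19.1, 18.9 and 23.6 RPKM in myeloma-bearing mice, a log2 difference of 4.56 (SE 0.87). C3 was the healthy library nearest to the myeloma-bearing group for both genes. It was also the stromal progenitor library in which most genes had reads, 10636 against 8606 to 10366 in the others.

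Angpt1 encodes angiopoietin 1, the ligand of the Tie2 receptor on endothelial and blood-forming cells. It was at 2.36, 0, 0, 0.0337 and 0 RPKM in healthy and at 3.23, 13.1, 4.72, 7.50 and 21.3 RPKM in myeloma-bearing mice (log2 difference 2.84, SE 0.82, adjusted p 0.0428 in limma with 38 libraries). All 5 myeloma-bearing libraries were above the healthy ones, although D3 exceeded C3 by less than 1 RPKM. Cdk16, a cyclin-dependent kinase, was at 6.77, 0, 0, 0.301 and 3.44 RPKM against 16.9, 12.8, 9.83, 31.1 and 38.1 RPKM, again without overlap. Wars2, the mitochondrial tryptophanyl-tRNA synthetase, had 0 to 10 reads in healthy libraries and 2.20 to 12.7 RPKM in myeloma-bearing libraries, and Mdm1, a microtubule-binding protein of centrioles, had 0 to 1 read and 1.68 to 10.5 RPKM.

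The next genes of this set overlapped between the groups through 1 library each. Cpne1, a calcium-dependent membrane-binding protein, was at 10.4 to 45.4 RPKM in myeloma-bearing mice and at most 1.14 RPKM in 4 healthy libraries, but at 19.7 RPKM in C3. Exosc10, a ribonuclease of the nuclear exosome, was at 28.3 to 57.9 RPKM in 4 myeloma-bearing libraries and at 1.78 RPKM in D3, against 0 to 6.71 RPKM in healthy mice. Ttc13 was at 2.41 to 79.8 RPKM against 0 to 3.65 RPKM. Pcbp4, an RNA-binding protein, had 0 to 2 reads in healthy libraries and up to 11.2 RPKM in myeloma-bearing mice, and 5930412G12Rik up to 5.56 RPKM.

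Plac8 is an interferon-responsive gene that is also abundant in neutrophils. It was at 116 RPKM in L3 and at 0 in the other 4 healthy libraries, and at 23.1, 118, 59.2, 236 and 253 RPKM in D3, E3, G3, I3 and J3. Without L3 and E3 the log2 difference went from 5.28 to 6.60, a value that depends on the pseudocount because the 4 healthy libraries left were at 0, and Plac8 was then the only gene called in the fit of stromal progenitors alone (adjusted p 0.0693). The part of neutrophil transcripts in the Plac8 difference was not tested.

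Abcc9, which encodes the regulatory subunit of a potassium channel of pericytes and smooth muscle, was at most 0.0466 RPKM (1 to 6 reads) in healthy libraries and at 16.6, 0.0460, 22.1, 4.88 and 81.3 RPKM in myeloma-bearing libraries. It rose in both 38-library fits, though E3 lay within the healthy range. Its channel partner Kcnj8 was at 26.0 RPKM in M3 and at or below 0.139 RPKM in the other healthy libraries, against 30.0, 0.141, 22.7, 25.3 and 34.6 RPKM. Rgs5, a pericyte regulator of G protein signalling, was at 4.65, 0, 40.7, 0.0253 and 0.124 RPKM against 81.7, 0, 301, 0 and 160 RPKM. D3, G3 and J3 were the libraries with all 3 pericyte transcripts, and the part of pericytes in other differences was not tested.

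**Figure D2:**
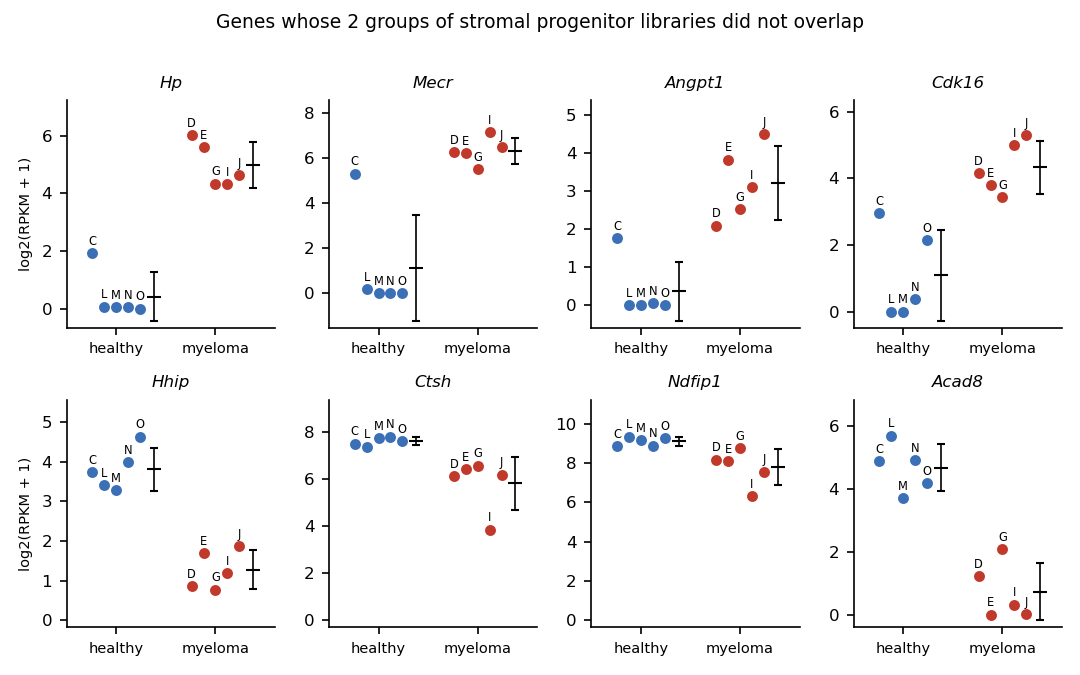
Points give log2(RPKM + 1) of 8 genes in the 5 healthy (blue) and 5 myeloma-bearing (red) stromal progenitor libraries, each with its replicate letter, and bars give the mean and SD. For every gene shown the 2 groups do not overlap, with Hp, Mecr, Angpt1 and Cdk16 higher and Hhip, Ctsh, Ndfip1 and Acad8 lower in myeloma-bearing mice.

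Among the genes whose groups did not overlap, the 10 lower in myeloma-bearing mice with the smallest p included 2 that were abundant in every library. Ndfip1, an adaptor that recruits Nedd4-family ubiquitin ligases, was at 466, 650, 574, 469 and 621 RPKM in healthy and at 288, 274, 430, 79.1 and 188 RPKM in myeloma-bearing mice, a log2 difference of -1.32 (SE 0.40, adjusted p 0.811). Ctsh, the lysosomal protease cathepsin H, was at 180, 164, 212, 222 and 196 RPKM against 68.7, 84.7, 94.1, 13.3 and 71.3 RPKM (log2 difference -1.78, SE 0.51, adjusted p 0.811). The healthy libraries varied little for both genes, with SDs of 85.3 RPKM and 23.5 RPKM around means of 556 RPKM and 195 RPKM. Neither gene was called in a 38-library fit.

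The other lower genes of this group were less abundant. Psmg3, a chaperone of proteasome assembly, was at 14.1 to 122 RPKM in healthy and 0 to 3.03 RPKM in myeloma-bearing mice, Immt, an organiser of mitochondrial cristae, at 32.6 to 52.8 RPKM against 0.695 to 21.2 RPKM, and Pdk3, a kinase that restrains pyruvate dehydrogenase, at 15.7 to 44.9 RPKM against 0.359 to 10.6 RPKM. Kpna3, a nuclear import receptor, was at 4.19 to 43.1 RPKM against 0.0277 to 2.10 RPKM. Napg, a factor for membrane fusion, and the nucleotidase gene Nt5c3l followed the same order. None of these genes had an adjusted p below 0.1 in the fit of stromal progenitors alone. Of the higher genes, Aldh3b1, an aldehyde dehydrogenase, was at 0.0799, 27.3, 1.08, 26.0 and 23.8 RPKM in myeloma-bearing libraries against at most 0.0244 RPKM in healthy ones. Ap5m1, a subunit of an endosomal adaptor complex, reached 14.5 RPKM against 0.0440 RPKM, and 2310047M10Rik reached 15.6 RPKM against 0.839 RPKM.

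**Figure D3:**
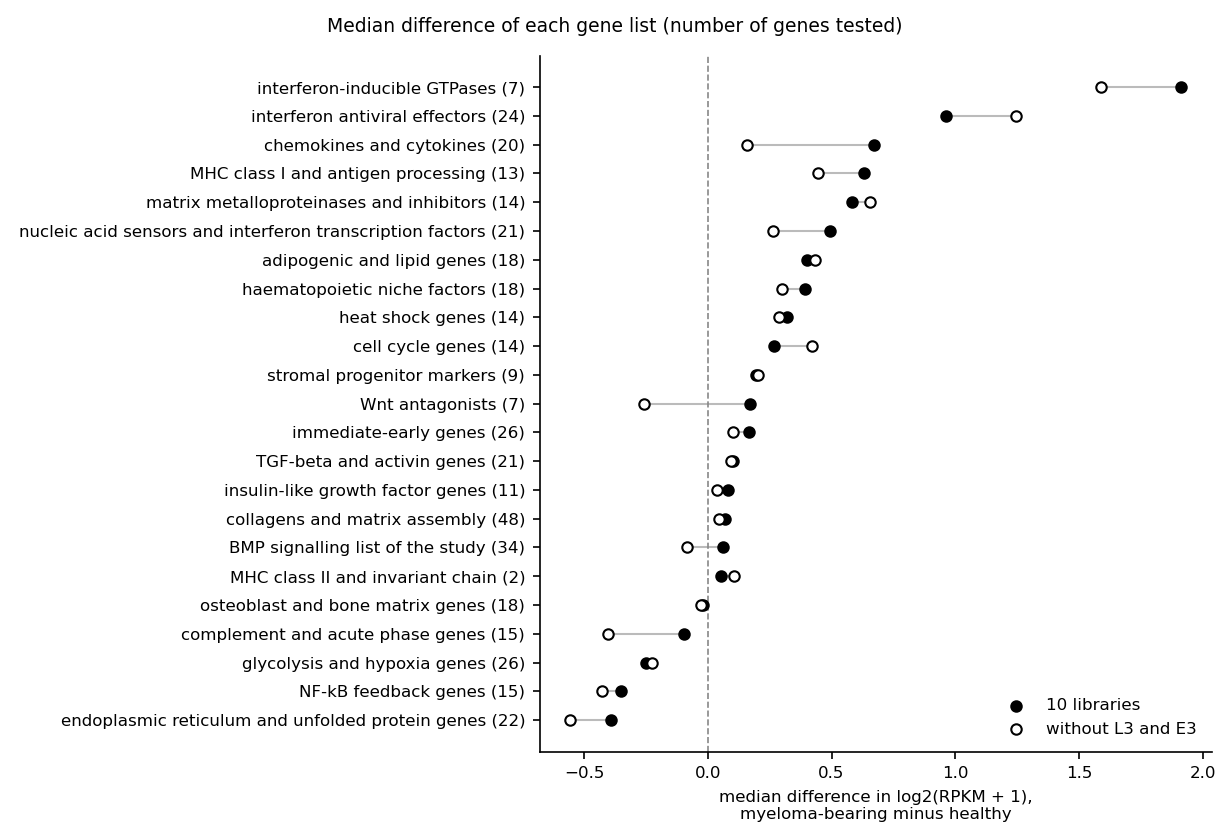
Each row is 1 gene list with the number of its genes tested, the filled point is the median log2 difference (myeloma-bearing minus healthy) over the 10 libraries, and the open point is the median without L3 and E3. Interferon-inducible GTPases and antiviral effectors lie farthest to the right at 1.91 and 0.96, endoplasmic reticulum genes farthest to the left at -0.39, and the dashed line is the median of all 8747 genes.

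Interferons are secreted signals that induce antiviral proteins in nearly all cells. Of 40 antiviral effector genes listed, 38 were in the table and 24 were tested, of which 21 had a positive difference with a median of 0.96, against 4370 of 8747 genes and a median of -0.00062 over all genes tested. Of the 38, 15 exceeded 1 RPKM in at least 4 myeloma-bearing libraries and 10 did so in healthy libraries. At an unadjusted p below 0.05, 8 were higher and 0 lower, beside 2.30% of all genes for the higher direction. Those that exceed 1 RPKM mainly in 1 group pass the filter through it, so these counts are descriptions.

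Ifi27l2a, a small mitochondrial and nuclear-membrane protein induced by interferon, had the largest difference of the effectors after Plac8. It was at 7.01, 0.506, 173, 42.5 and 28.5 RPKM in healthy and at 138, 299, 897, 856 and 673 RPKM in myeloma-bearing mice (log2 difference 4.59, SE 0.94, adjusted p 0.283, and 0.0211 in limma and 0.117 in voom-limma with 38 libraries). D3 was below healthy M3, and the other 4 myeloma-bearing libraries were above all healthy ones. Bst2 encodes tetherin, which holds budding viruses at the cell surface. It was at 1.79, 0.229, 20.4, 0.299 and 27.5 RPKM against 73.2, 186, 53.9, 113 and 15.0 RPKM (log2 difference 3.79, SE 0.99, adjusted p 0.811, and 0.00723 in limma and 0.122 in voom-limma with 38 libraries), with J3 inside the healthy range. Ifitm3, which blocks entry of viruses from endosomes, was the most abundant of the 8 at 650.5, 1385, 1770, 661 and 1030 RPKM against 1540, 2068, 3111, 1104 and 2949 RPKM, with a log2 difference of 0.98 (SE 0.35).

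The remaining effectors with an unadjusted p below 0.05 varied between libraries of the same group. Ifit1, which binds viral RNA caps, was at 0.711, 5.42, 6.74, 0 and 0.0170 RPKM in healthy and at 17.6, 17.1, 56.3, 0.0608 and 27.4 RPKM in myeloma-bearing mice. Usp18, which removes Isg15 from proteins and restrains the interferon receptor, was at 8.94 RPKM in M3 and below 0.1 RPKM in the other healthy libraries, against 76.7, 31.6, 43.7, 0 and 18.8 RPKM. Oasl2, of the oligoadenylate synthetase family, was at or below 0.340 RPKM against 0.0233, 9.78, 9.23, 6.16 and 19.2 RPKM. I3 was the myeloma-bearing library that lacked Ifit1 and Usp18, and D3 the one that lacked Oasl2. Lgals3bp, a secreted galectin ligand, was at 34.3, 79.0, 0, 0.0423 and 19.9 RPKM against 61.0, 10.2, 105, 139 and 41.1 RPKM. The 3 effectors with negative differences were Ifit2, Parp12 and Samd9l, at log2 differences of -1.45, -1.24 and -0.79, and none had an unadjusted p below 0.05.

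Of the nucleic acid sensors and interferon transcription factors, 17 of 21 tested genes had a positive difference (median 0.50), and 2 were higher at an unadjusted p below 0.05, beside 49.96% and 2.30% of all genes tested. Without L3 and E3 the median was 0.26, with 13 of 20 positive. Irf1, the transcription factor through which interferon gamma acts on many genes, was at 18.2, 13.0, 11.4, 10.9 and 9.88 RPKM in healthy and at 135, 87.8, 68.7, 91.3 and 12.2 RPKM in myeloma-bearing mice, a log2 difference of 2.24 (SE 0.66, adjusted p 0.811). J3 alone was inside the healthy range. Jak2, a kinase of the interferon gamma receptor, was at 9.02, 27.2, 5.29, 18.3 and 0.507 RPKM against 32.4, 21.1, 23.7, 96.4 and 20.2 RPKM (log2 difference 1.90, SE 0.84). Jak1, which serves both interferon receptors, had a difference of -0.11, and of 0.18 without L3 and E3.

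The interferon-inducible GTPases, which attack the vacuoles of intracellular parasites, differed among themselves in healthy libraries. Of 7 tested, 6 had a positive difference (median 1.91, and 0.66 without G3), the 15 in the table summed to 60.1, 56.1, 105, 13.3 and 0.624 RPKM in the healthy libraries, and 0 of these 15 exceeded 1 RPKM in 4 healthy libraries against 4 in myeloma-bearing mice. Ifi47 was at most 0.156 RPKM in healthy mice and at 4.94, 41.4, 31.3, 0.0598 and 6.34 RPKM in myeloma-bearing mice. Iigp1 was at 4.45 RPKM in C3 and at most 0.0733 RPKM in the other healthy libraries, against 16.0, 7.12, 41.6, 0.0514 and 31.5 RPKM. Igtp was at most 1.92 RPKM against 0.0362, 19.7, 22.3, 0.377 and 27.9 RPKM. I3 was near 0 for all 3, and E3, G3 and J3 were high for all 3. Gbp2 overlapped between the groups, at 0 to 48.6 RPKM and 16.0 to 60.4 RPKM.

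**Figure D4:**
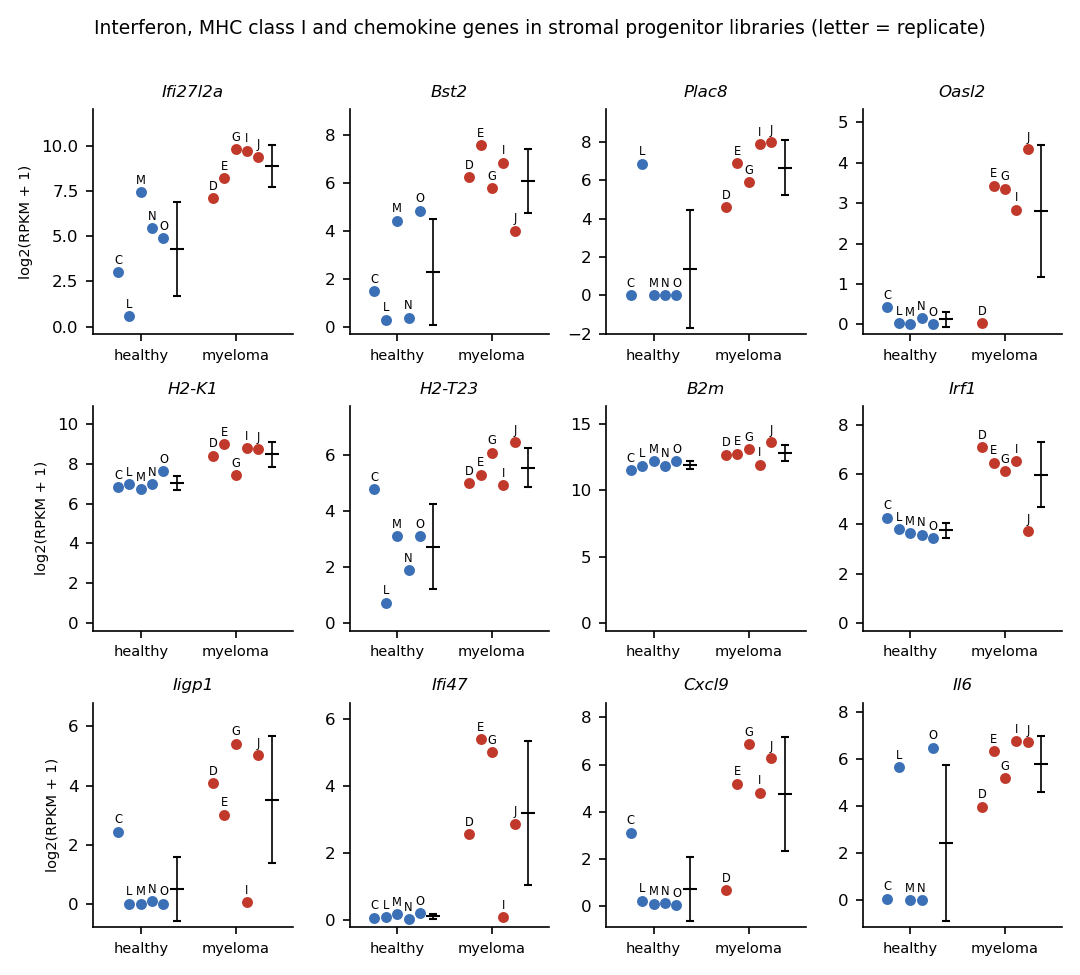
Points give log2(RPKM + 1) of 12 interferon-responsive, MHC class I and chemokine genes in each healthy (blue) and myeloma-bearing (red) library, with the replicate letter, and bars give the mean and SD. H2-T23 is the gene of the 12 whose groups do not overlap, H2-K1 overlaps through G3, and I3 lies with the healthy libraries for Iigp1 and Ifi47.

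MHC class I molecules present peptides from inside the cell to T cells, with B2m as their shared light chain. Of 13 tested genes of this list, 11 had a positive difference (median 0.63) and 3 were higher at an unadjusted p below 0.05, beside 49.96% and 2.30% of all genes tested. H2-T23, the ligand of inhibitory and activating receptors of natural killer cells, was at 26.6, 0.667, 7.65, 2.75 and 7.65 RPKM in healthy and at 30.7, 38.1, 66.4, 29.5 and 86.2 RPKM in myeloma-bearing mice (log2 difference 2.81, SE 0.79, adjusted p 0.811, and 0.0428 in limma and 0.168 in voom-limma with 38 libraries). All 5 myeloma-bearing libraries were above the healthy ones. H2-K1, a classical heavy chain, was at 112, 125, 104, 125 and 195 RPKM against 335, 501, 172, 440 and 418 RPKM, a log2 difference of 1.44 (SE 0.38, adjusted p 0.811, and 0.0146 in limma and 0.912 in voom-limma with 38 libraries). G3 lay below healthy O3, and the other 4 were above all healthy libraries.

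B2m was at 2904, 3703, 4743, 3667 and 4659.96 RPKM against 6599.7, 6894, 8788, 3880.0 and 12523.5 RPKM. Its log2 difference was 0.90 (SE 0.28, adjusted p 0.811), and only I3 fell within the healthy range. In voom-limma with 38 libraries the difference was 0.60 (SE 4.80), and without L3 and E3 it was -0.0386 in that fit and 0.90 (SE 0.34) in limma on the remaining 8 libraries. H2-D1 had a difference of 0.60 and Psme2, of the proteasome activator, of -0.08, which was 0.0337 without L3 and E3. H2 heavy chains are close in sequence, so reads can be shared between them. Of the class II genes, 2 were tested and neither had an unadjusted p below 0.05.

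The starts of these genes were read for the core of the interferon-stimulated response element (GAAA, any 2 bases, GAAA, on either strand) in RefSeq windows of GRCm38.p6. It was in the windows of 1079 of 27025 genes (3.99%) and of 248 of 7031 genes tested here (3.53%). Among tested list members with a window, whatever their difference, it was in 5 of 18 antiviral effectors and 4 of 17 sensors and transcription factors. It was also in 5 of 6 interferon-inducible GTPases and 4 of 12 class I genes. Of the 16 members of the 4 interferon and class I lists with an unadjusted p below 0.05, 13 had a window and 6 of those held the core (Ifit1, Bst2, Ifitm3, Igtp, B2m and H2-T23). The stretches below show 1 core of each gene in capitals, on the gene's own strand from 5′ to 3′, for 5 of these 6 genes. The stretches of Ifit1 and Bst2 each hold a second core that is left in lower case, which overlaps the first in Bst2. They lie at chr19:34640784-34640833 (Ifit1, plus strand), chr8:71537567-71537616 (Bst2, minus strand), chr11:58199502-58199551 (Igtp, plus strand), chr2:122147528-122147577 (B2m, plus strand) and chr17:36032796-36032845 (H2-T23, minus strand).
Ifit1: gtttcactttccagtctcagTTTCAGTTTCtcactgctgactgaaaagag
Bst2: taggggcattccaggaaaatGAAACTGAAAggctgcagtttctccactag
Igtp: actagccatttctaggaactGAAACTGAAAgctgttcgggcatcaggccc
B2m: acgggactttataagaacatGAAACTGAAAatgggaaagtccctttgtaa
H2-T23: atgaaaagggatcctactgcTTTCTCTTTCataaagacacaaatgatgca
Ifit1 and H2-T23 carry the core on the opposite strand. These are matches of letters in a window, which the expression values do not test.

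The mean log2 level of the 24 antiviral effectors was 2.98, 3.41, 3.40, 2.77 and 2.59 in healthy C3, L3, M3, N3 and O3. It was 3.95, 4.21, 5.51, 3.23 and 5.53 in D3, E3, G3, I3 and J3, so that all but I3 exceeded every healthy library. In osteoprogenitors of the series the same mean was 2.48 to 2.94 in healthy and 3.04 to 5.11 in myeloma-bearing libraries, and in endothelial cells 4.21 to 5.37 and 6.18 to 6.76. The osteoprogenitors had 8 libraries, with none of letters C and E. The letters of the high libraries were partly shared, since G and J were the highest of both stromal progenitors and osteoprogenitors. All 5 healthy stromal progenitor libraries were below every endothelial library.

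**Figure D5:**
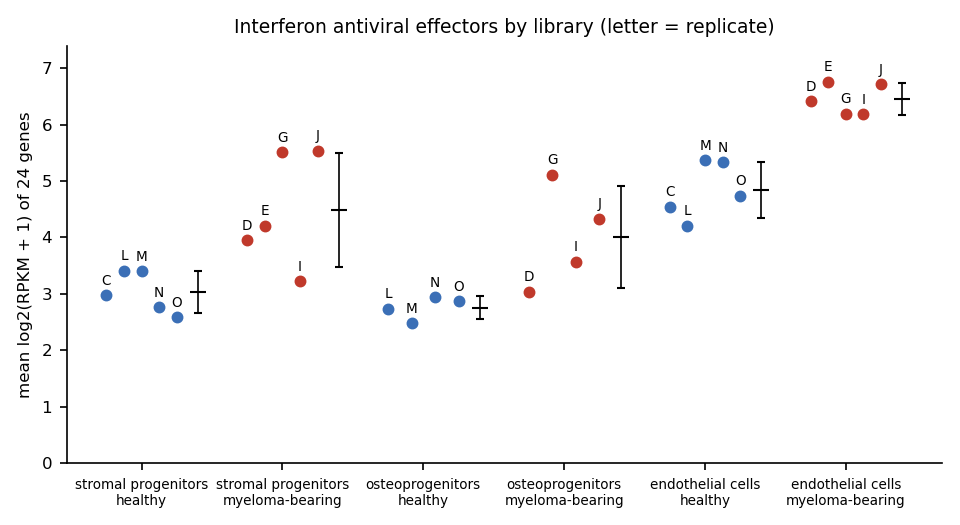
Each point is the mean log2(RPKM + 1) of the 24 antiviral effectors in 1 library, with its replicate letter, for 3 sorted cell types of healthy (blue) and myeloma-bearing (red) mice, and bars give the mean and SD. Stromal progenitors range from 2.59 to 3.41 in healthy and from 3.23 to 5.53 in myeloma-bearing mice, and endothelial cells lie higher in both states.

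Chemokines and cytokines attract and sustain immune cells. Of 20 tested, 11 had a positive difference (median 0.67), and 3 were higher at an unadjusted p below 0.05, beside 49.96% and 2.30% of all genes tested. Cxcl9, the interferon gamma-induced chemokine for T cells, was at 7.70, 0.181, 0.0799, 0.0946 and 0.0308 RPKM in healthy and at 0.604, 35.4, 115, 27.0 and 75.5 RPKM in myeloma-bearing mice (log2 difference 4.03, SE 1.15, adjusted p 0.811, and 0.0918 in limma and 0.199 in voom-limma with 38 libraries). Il6, a growth factor for plasma cells, was at 0.0467, 49.0, 0, 0 and 88.7 RPKM against 14.7, 79.2, 35.4, 108 and 105 RPKM. Ccl2, the monocyte chemokine, was at 108, 1788, 321, 31.5 and 11.7 RPKM against 130, 1536, 2833, 736 and 239 RPKM, with a log2 difference of 2.38 (SE 1.05). Cxcl9 was low in D3 and highest among healthy libraries in C3, Il6 was high in healthy L3 and O3, and L3 had the highest healthy Ccl2, so that the groups overlapped for all 3 genes. Ccl9 and Ccl19 were listed at 0 in all healthy libraries and at 4.22, 8.09 and 10.4 RPKM and 6.05, 16.2 and 4.98 RPKM in E3, G3 and J3, and voom-limma with 38 libraries called both. Both were below the filter and were named after their values were seen. With the healthy group at 0 throughout, these 2 calls are descriptions. Il33, Il15 and Lif had negative differences of -2.50, -1.39 and -1.43, none of them with an unadjusted p below 0.05.

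NF-kB is a second route to inflammatory transcription. Of 15 of its feedback genes tested, 5 had a positive difference (median -0.35, and 0.02 without healthy O3), beside 49.96% of all genes tested. Tnip1, which restrains NF-kB, was at 4.74, 0.0384, 1.61, 0.120 and 8.21 RPKM against 19.0, 19.9, 1.65, 30.6 and 8.13 RPKM, and Nfkbie, one of the inhibitors of NF-kB, at 0, 0, 14.1, 25.3 and 10.6 RPKM against 0, 0.0159, 0, 2.57 and 0 RPKM. These were the genes with an unadjusted p below 0.05, 1 in each direction, beside 2.30% higher and 2.70% lower among all genes tested. Nfkbia, the main inhibitor, was at 270 to 732 RPKM and 409 to 965 RPKM. Of 15 complement and acute phase genes 6 had a positive difference (median -0.10, and -0.40 without L3 and E3), beside 49.96% of all genes tested. Beside Hp, the complement regulator Cd59a had an unadjusted p below 0.05, at 54.3, 34.6, 12.8, 67.8 and 11.2 RPKM against 5.30, 25.9, 15.4, 0.798 and 0.156 RPKM, so that 1 gene was higher and 1 lower, beside 2.30% and 2.70% of all genes tested.

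Niche factors of blood-forming cells include Cxcl12, which retains them in marrow, and Kitl, the stem cell factor. Of 18 tested, 12 had a positive difference (median 0.39), with Angpt1, Kitl and Ebf3 higher at an unadjusted p below 0.05, beside 49.96% and 2.30% of all genes tested. Kitl was at 8.54, 0.140, 0.0596, 0.0168 and 3.35 RPKM in healthy and at 40.1, 7.07, 24.2, 0.0294 and 56.7 RPKM in myeloma-bearing mice (log2 difference 2.65, SE 1.16). Ebf3, a transcription factor of Cxcl12-abundant reticular cells, was at 2.19, 6.69, 0, 0 and 0 RPKM against 5.45, 15.4, 4.56, 4.25 and 11.0 RPKM. The groups overlapped for both, with E3 and I3 below healthy C3 for Kitl and healthy L3 above D3, G3 and I3 for Ebf3. Cxcl12 was at 133, 115, 31.4, 7.39 and 331 RPKM against 474, 224, 75.7, 101 and 248 RPKM, a difference of 1.44 (SE 0.79) that did not reach an unadjusted p below 0.05.

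BMP signalling directs osteoblast differentiation. The list was taken from the study of these samples and is not independent evidence of a direction. Of 34 tested, 18 had a positive difference (median 0.06, and -0.09 without L3 and E3), and Bmpr1b was the 1 gene with an unadjusted p below 0.05, beside 49.96% positive and 2.30% higher at that p among all genes tested. Bmpr1b, a type I receptor for BMP ligands, was at 0.903, 0.0329, 1.401, 0 and 0 RPKM in healthy and at 7.70, 3.43, 6.99, 0.879 and 7.03 RPKM in myeloma-bearing mice. I3 lay below C3 and M3, and the other 4 were above all healthy libraries. The log2 difference was 1.99 (exact permutation p 0.0238, two-sided, 0.143 adjusted over the 6 genes that were tested singly, where 0.00794 is the smallest p possible with 5 against 5). Limma and voom-limma with 38 libraries gave adjusted p of 0.0211 and 0.0554.

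With all 10 libraries, none of the 6 genes tested singly had an adjusted exact permutation p below 0.1. That of Bmpr1b was 0.0952 without I3, and its unadjusted exact permutation p was 0.0857 without L3 and E3. Bmp4, a ligand, was at 60.003, 263, 152, 117 and 81.0 RPKM against 146, 28.4, 150, 10.2 and 75.3 RPKM (difference -1.08, exact permutation p 0.238). Grem1, a secreted BMP antagonist, was at 57.8 RPKM in N3 and 31.0 RPKM in O3, at most 0.279 RPKM in the other healthy libraries, at 1.74 RPKM in D3 and at 0 in the other myeloma-bearing libraries (difference -1.96, exact permutation p 0.206). So 2 healthy libraries carried all but a trace of the Grem1 transcripts. The differences of the receptors Bmpr1a and Acvr1 were 0.50 and 0.77 with exact permutation p of 0.532 and 0.413, and that of Ly6a was -0.00021 with an exact permutation p of 1. Single libraries moved these differences: that of Acvr1 was 0.30 without M3 and 0.25 without I3, that of Bmpr1a was -0.0419 without L3, 0.25 without O3 and 0.96 without N3, that of Bmp4 was -0.50 without I3, and that of Grem1 was -1.06 without N3 and -1.28 without O3. Without L3 and E3 the differences of Bmp4 and Bmpr1a were -0.56 and -0.0822. Tnfsf11, which encodes the osteoclast factor RANKL, was below the filter, with at most 0.0205 RPKM in healthy mice and 16.1, 0, 0.0268, 25.6 and 0.986 RPKM in myeloma-bearing mice, and voom-limma with 38 libraries called it. Its decoy receptor Tnfrsf11b (osteoprotegerin) ranged from 373 to 619 RPKM and from 339 to 460 RPKM.

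Bone matrix genes were abundant and without direction. Of 18 osteoblast genes tested 9 had a positive difference (median -0.02) and none had an unadjusted p below 0.05. Ibsp, a mineral-binding sialoprotein, ranged from 1117 to 2421 RPKM in healthy and from 699 to 2623 RPKM in myeloma-bearing mice, and Col1a1 from 428 to 1048 RPKM and from 162 to 1066 RPKM. Dmp1, made by osteocytes, reached 112 RPKM in J3 and at most 1.06 RPKM in every other library. Of 7 Wnt antagonists tested, 4 had a positive difference (median 0.17, and -0.26 without L3 and E3) and none an unadjusted p below 0.05, and Dkk1 was at or near 0 in all 10 libraries.

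Of 18 adipogenic and lipid genes tested, 14 had a positive difference (median 0.40), with 3 higher and 1 lower at an unadjusted p below 0.05, beside 49.96%, 2.30% and 2.70% of all genes tested. Adipoq, the hormone of fat cells and of adipocyte-primed marrow stroma, was at 0.113 to 1.09 RPKM in healthy libraries. It was at 328, 48.7, 1.31, 0.781 and 519 RPKM in D3, E3, G3, I3 and J3, so that the difference came from D3, E3 and J3 (log2 difference 4.38, SE 1.41, adjusted p 0.811). Apoe, the lipid carrier, was at 381, 14.2, 24.2, 4.76 and 233 RPKM against 755, 573, 108, 152 and 1056 RPKM (log2 difference 3.05, SE 0.97). Dgat1, which makes triglyceride, was at 27.2, 0, 2.86, 0 and 0 RPKM against 18.7, 41.3, 25.3, 48.2 and 2.06 RPKM, and Scd2, a fatty acid desaturase, was lower at 25.8 to 97.9 RPKM against 7.01 to 49.0 RPKM. C3 was the healthy library highest in Apoe and Dgat1.

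The median difference of the matrix genes was near 0. Of 48 collagens and assembly genes tested, 28 had a positive difference (median 0.07), and 2 were higher at an unadjusted p below 0.05, beside 49.96% and 2.30% of all genes tested. Sparcl1, a matricellular protein, was at 22.6, 66.3, 40.1, 103 and 77.9 RPKM in healthy and at 74.9, 186, 232, 187 and 209 RPKM in myeloma-bearing mice (log2 difference 1.59, SE 0.50), with D3 as the only overlap. Fbln5, which assembles elastic fibres, was at 0.163 to 12.2 RPKM against 21.0, 37.5, 25.9, 1.14 and 41.8 RPKM. Dcn, the most abundant gene in 9 of the 10 libraries, had a difference of -0.27 (SE 0.18). Of 14 metalloproteinases and inhibitors tested, 10 had a positive difference (median 0.58), and Adamts1, which cleaves proteoglycans, was at 12.6, 13.6, 0.0380, 7.14 and 0.0550 RPKM against 66.5, 29.5, 35.3, 23.5 and 14.0 RPKM without overlap (log2 difference 2.79, SE 0.94, adjusted p 0.811, and 0.0925 in limma and 0.305 in voom-limma with 38 libraries).

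TGF-beta is stored in matrix in a latent form. Of 21 tested genes of this list, 12 had a positive difference (median 0.10). Tgfb2, a ligand, was at 15.7, 8.73, 17.0, 23.1 and 16.4 RPKM in healthy and at 38.9, 51.8, 38.8, 46.4 and 36.9 RPKM in myeloma-bearing mice, with every myeloma-bearing library above every healthy one (log2 difference 1.39, SE 0.56, adjusted p 0.915). Ltbp1, which anchors latent TGF-beta, was at 22.7, 11.3, 28.9, 14.4 and 35.2 RPKM against 44.0, 55.4, 30.4, 57.1 and 151 RPKM, G3 being below O3. Of 11 genes of insulin-like growth factors and their binding proteins, 6 had a positive difference (median 0.08) and none an unadjusted p below 0.05.

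Secreted proteins fold in the endoplasmic reticulum. Of 22 endoplasmic reticulum genes tested, 4 had a positive and 18 a negative difference (median -0.39, and -0.56 without L3 and E3), beside 49.96% positive among all genes tested. Sdf2l1, a chaperone cofactor, was at 47.3, 118, 48.1, 61.1 and 127 RPKM in healthy and at 57.8, 44.7, 21.1, 0.181 and 19.2 RPKM in myeloma-bearing mice, and was the 1 gene of the list with an unadjusted p below 0.05, beside 2.70% of all genes tested for the lower direction. Without L3 and E3, 3 genes of the list were lower at that p, beside 254 of all 8063 genes then tested. Pdia6, a disulphide isomerase, was at 210, 198, 176, 292 and 192 RPKM against 16.0, 174, 166, 150 and 96.4 RPKM, without overlap, and Pdia3 at 435, 457, 403, 338 and 339 RPKM against 237, 339, 283, 251 and 174 RPKM. These 2 isomerases differed by -1.17 and -0.64 on the log2 scale with adjusted p of 0.956 each. Of 26 glycolysis and hypoxia genes tested, 10 had a positive difference (median -0.25), and Ldha, the lactate dehydrogenase subunit, was at 335, 182, 233, 412 and 376 RPKM against 80.0, 226, 235, 127 and 198 RPKM (log2 difference -0.87, SE 0.40).

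Immediate-early and heat shock genes were listed as possible signs of dissociation. Of 26 immediate-early genes tested 14 had a positive difference (median 0.16) and of 14 heat shock genes 11 did (median 0.32). Among all genes tested 49.96% were positive, and neither list had an unadjusted p below 0.05. Without L3 and E3, 16 of 25 immediate-early and 12 of 14 heat shock genes were positive. The part of dissociation in the differences was not tested. Of 14 cell cycle genes tested, from 44 in the table, 10 had a positive difference (median 0.27), again without an unadjusted p below 0.05. Of the 9 stromal progenitor markers, 7 had a positive difference (median 0.19).

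Whether a difference between healthy and myeloma-bearing mice was itself different in stromal progenitors was tested as an interaction in the 38 libraries. Against osteoprogenitors, 16 of 12683 genes (0.126%) passed, and against endothelial cells 12 (0.0946%). Osteoprogenitors had 8 libraries, with none of letters C and E. Hhip passed both, its log2 difference being 2.90 below that of osteoprogenitors (adjusted p 0.0378) and 2.52 below that of endothelial cells (adjusted p 0.0952). The differences of Hhip in those cell types were 0.36 and -0.01. 4632415L05Rik also passed both, with interaction values of -4.66 and -4.05 (adjusted p 0.0272 and 0.0621), and Perp passed against osteoprogenitors with -4.38 (adjusted p 0.0272), a value that depends on the pseudocount because myeloma-bearing libraries had 0 to 1 read. Ifit2, another RNA-binding antiviral effector, passed against endothelial cells with -5.81 (adjusted p 0.0505): its difference was 4.36 in endothelial cells and -1.45 in stromal progenitors. In stromal progenitors Ifit2 was at 3.10, 0, 4.86, 13.6 and 4.77 RPKM in healthy and at 0, 0.244, 9.31, 0 and 0.0286 RPKM in myeloma-bearing mice.

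For most interferon genes the interaction did not pass. Ifi27l2a had differences of 4.59 in stromal progenitors, 6.35 in osteoprogenitors and 1.62 in endothelial cells, and its interaction values were -1.76 (adjusted p 1) and 2.97 (adjusted p 0.52). H2-K1 had differences of 1.44, 0.45 and 0.00, with an interaction against endothelial cells of 1.44 (adjusted p 0.187). Bmpr1b had differences of 1.99, 0.57 and 0.00, with interactions of 1.42 (adjusted p 0.765) and 1.99 (adjusted p 0.175).

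Without L3 and E3, 4 libraries against 4 remained. The medians of the antiviral effectors and class I genes were then 1.24 and 0.44, and that of chemokines and cytokines 0.16 in place of 0.67. In the limma fit of 38 libraries 55 genes were called without them, of which 19 were among the original 31, and in voom-limma 88, of which 38 were among the original 82. Of the 20 genes called in both fits, 10 were again called in both. Groups that did not overlap numbered 87 higher and 130 lower with 4 libraries on each side. Smaller groups are free of overlap more often by chance. These 2 counts therefore cannot be compared with those of the full groups and do not show a clearer separation.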

How the data were processed

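RNA of 100 sorted cells per library was amplified with SmartSeq2. The deposited values are RPKM, which the authors computed with edgeR from featureCounts (Subread 1.4.5-p1) counts of STAR 2.4.0 alignments to GRCm38. The table held 13260 genes in 38 libraries. Because RPKM of a gene are whole multiples of 1 read, reads were recovered for 100% of genes (tolerance 0.01 reads), which gave the depths in the report.

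Genes that exceeded 1 RPKM in 4 or more of the 10 stromal progenitor libraries were compared on log2(RPKM + 1) with limma 3.58.1 in R 4.3.3 (moderated variance with a trend, Benjamini-Hochberg adjustment). Called genes had an adjusted p below 0.1 and an absolute log2 difference above 1. The same fit with all 38 libraries, voom-limma on recovered reads, other pseudocounts, filters, scalings and omitted libraries were alternatives. Differences from the response of osteoprogenitors and endothelial cells were interaction terms. Single genes were compared with an exact permutation test (scipy 1.17.1). The steps were tested on simulated data.

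Named genes were the 10 higher and 10 lower genes with the smallest p among those whose groups did not overlap, genes called in both 38-library fits, markers, the genes of the study and up to 4 members of each list in each direction. Further interferon, chemokine and other list members, Tnfsf11, Ccl9 and Ccl19 were named after their values were seen. This comparison, its lists and its named genes were chosen with earlier results of these data known, and its libraries were assigned by their labels. Promoter windows came from RefSeq tables of GRCm38.p6, the build family of the deposited data.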

Additional observations from a re-analysis of the deposited data

Results flagged for a closer look

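In 46 of 262 groups of 5 libraries tested (17.6%), 1 library lay far from the other 4. Chance flags about 1 group in 20 where values are normally distributed, which is no reference for genes at 0 in the other 4 libraries, where a single read is enough. Healthy C3 was the high library for Hp (2.79 RPKM), Mecr (38.24 RPKM), Angpt1 (2.364 RPKM), Cpne1 (19.7 RPKM), Iigp1 (4.45 RPKM), Alcam (1.125 RPKM) and Cxcl9 (7.699 RPKM), and for the mean log2 level of adipogenic genes (3.97) and of TGF-beta genes (5.046). Among other healthy libraries, L3 was high for Plac8 (115.7 RPKM), M3 for Usp18 (8.939 RPKM), Kcnj8 (26.01 RPKM), Ptprc (0.04916 RPKM) and 5930412G12Rik (0.4826 RPKM), N3 for Dmp1 (0.2157 RPKM), Tnfsf11 (0.02049 RPKM), Mdm1 (0.01454 RPKM), 2310047M10Rik (0.8388 RPKM) and Igtp (1.924 RPKM), and O3 for Wars2 (0.102 RPKM), Dkk1 (0.02002 RPKM) and Aldh3b1 (0.02443 RPKM). M3 was low for the BMP receptor gene Acvr1 (3.238 RPKM).

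Of the myeloma-bearing libraries, I3 was low for Ctsh (13.32 RPKM), Ifit1 (0.0608 RPKM), Fbln5 (1.136 RPKM), Sdf2l1 (0.181 RPKM) and the mean log2 level of stromal progenitor markers (5.724), and high for Nfkbie (2.567 RPKM). D3 was low for Exosc10 (1.782 RPKM), Sparcl1 (74.86 RPKM) and Pdia6 (15.97 RPKM), and high for Grem1 (1.741 RPKM) and Lif (1.702 RPKM). E3 was low for Kcnj8 (0.1409 RPKM) and high for Alcam (1.43 RPKM) and Ptprc (4.891 RPKM). J3 was low for Irf1 (12.24 RPKM) and 5930412G12Rik (0.0 RPKM), and high for Dmp1 (111.8 RPKM) and the ribosomal RNA gene Rn45s (49420.0 RPKM). G3 was low for Col1a1 (162.5 RPKM) and S100b (16.42 RPKM), and high for Ifit2 (9.313 RPKM), Perp (0.03147 RPKM) and Snhg10 (0.2261 RPKM), the last 2 at 1 to 2 reads.

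The difference between myeloma-bearing and healthy mice was itself different from that of another cell type for 5 of the genes named here, by a limma interaction. On the log2 scale these were Hhip at -2.90 from osteoprogenitors (adjusted p 0.0378) and -2.52 from endothelial cells (adjusted p 0.0952), 4632415L05Rik at -4.66 (adjusted p 0.0272) and -4.05 (adjusted p 0.0621), Perp at -4.38 from osteoprogenitors (adjusted p 0.0272), and Ifit2 at -5.81 (adjusted p 0.0505) and Napg at -5.76 (adjusted p 0.0787) from endothelial cells.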

How the results depend on the processing

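With the 10 libraries fitted by themselves, 0 genes were called by limma, and 437 had an unadjusted p below 0.05. The count was 31 in limma with all 38 libraries, 82 in voom-limma with all 38, 55 and 88 in these fits without L3 and E3, 1 without a variance trend (Hp), 1 without L3 and E3 (Plac8) and 8 in voom-limma on all genes of the 10 libraries. Voom-limma on the 10 libraries with the filter called 0 genes, with 502 at an unadjusted p below 0.05. Leaving out 1 library gave 0 to 1 gene (Mecr without C3, Plac8 without L3, Ifi27l2a without M3). In the 38-library limma fit the count of 31 became 15 without N3 and 47, 47, 56 and 49 without C3, E3, G3 and I3, and in voom-limma 82 became 127 without C3. Differences in response from endothelial cells numbered 12, and 51 in voom-limma.

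Of the 98 genes named here that were tested, the differences of 12 changed sign under an alternative. That of Ly6a was 0.3285 without L3 and E3 in both limma fits, 0.2398 and 0.3114 in the voom-limma fits without them, 0.1245 with array weights, 0.069 with quantile normalisation, 0.0204 with median centring and 0.0498 in voom-limma without J3, and it ranged from -0.2914 to 0.18 over single omissions. That of Bmpr1a was -0.0822 without L3 and E3 in both limma fits, -0.1706 and -0.1718 in voom-limma, and -0.0419 to 0.9571 over single omissions. Prrx1 gave -0.0734 and -0.0164 in voom-limma without L3 and E3 and -0.0022 to 0.4883 over single omissions, and B2m gave -0.0386 in voom-limma with all 38 libraries but L3 and E3. Without L3 and E3, Jak1 gave 0.1794 and Psme2 0.0337 in both limma fits, and 0.3419 and 0.1396 in voom-limma with 38 libraries and 0.2786 and 0.1572 with 10. Jak1 gave 0.0275 in voom-limma without J3. Col1a1 gave 0.0187 with quantile normalisation and, in voom-limma, 0.057 with 10 libraries, 0.2665 on all genes, 0.4035 with 38 libraries and 0.2035 with these but L3 and E3. Chad gave 0.3104 in voom-limma on all genes. Over single omissions Jak1 ranged from -0.4577 to 0.0775, Psme2 from -0.3843 to 0.0899, Col1a1 from -0.2244 to 0.4522, Ctsk from -0.1961 to 0.5303, Ibsp from -0.4287 to 0.0478, S100a8 from -0.7532 to 2.9202 and S100b from -0.3666 to 0.3813. With a pseudocount of 0.1 the difference was 3.88 for Bmpr1b and -3.11 for Grem1. The cause was not tested. Of 2451 values of these 98 genes under alternatives, 54 changed sign, 94 passed the threshold that they missed before, and 2303 kept both direction and side. No gene was called in the main fit, so keeping its side meant staying uncalled. The alternatives reuse the same libraries, and many of these genes were named for a small p. Fits without L3 and E3 in the 38 libraries, voom-limma on all genes and voom-limma without J3 were added after the data were seen.

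No paired analysis was possible because the letters of healthy and myeloma-bearing mice do not overlap. Letters are shared between cell types, where the correlation of libraries of the same letter was 0.017. With the replicate block, 23 genes differed in response from osteoprogenitors in place of 16, and 17 from endothelial cells in place of 12. Each library held 100 cells, and the median SD between stromal progenitor libraries was 1.401 (log2). This spread may limit what 5 against 5 can show, which was not tested. In endothelial cells, also 5 against 5, it was 1.614. Limma with 38 libraries over 12683 genes called 150 genes in endothelial cells and 28 in stromal progenitors.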
